A study of Mus musculus with 8 samples.

Results

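The amino acid transporter families were taken as every entry of the deposited count table whose symbol belongs to the solute carrier families Slc1, Slc3, Slc6, Slc7, Slc36, Slc38 or Slc43, with a plain number after the letter a. This gave 46 of the 16130 genes in the table: 6 of Slc1, 2 of Slc3, 13 of Slc6, 11 of Slc7, 3 of Slc36, 8 of Slc38 and 3 of Slc43. Symbols with a further letter, such as Slc6a20a, fall outside that rule and are listed with the other genes of the pathway. The counts come from total RNA of the distal colon of Tcf4Het/+ ApcMin/+ mice, so that every library carried both alleles. ApcMin truncates the tumour suppressor Apc and gives rise to intestinal adenomas. The other allele is a heterozygous change of Tcf4, a symbol also used for the Wnt pathway factor Tcf7l2, and the labels do not say which gene is meant. The EE group (n = 4) had enriched housing over 4 months, and the NE group (n = 4) had conventional housing over the same time. The labels do not give age at sampling, the number of animals per library or whether the pieces held adenoma. Nothing says that the libraries came from separate animals, so each p-value measures the spread between these libraries, which may be technical.

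Amino acids cross cell membranes mainly through carriers, and the families divide that work. Slc7 light chains need a heavy chain of the Slc3 family to reach the membrane: Slc3a2 serves most exchangers of the basolateral side, and Slc3a1 pairs with Slc7a9 in the apical uptake of cystine and cationic amino acids. Slc38 genes encode sodium-coupled carriers of glutamine and other small neutral amino acids, Slc1 genes carriers of glutamate or of neutral amino acids, and Slc36 genes proton-coupled carriers. Slc6 holds amino acid carriers beside transporters of taurine, creatine and neurotransmitters, and Slc43 holds 2 carriers of large neutral amino acids and a purine carrier.

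Counts summed over the table to between 4735764 and 6266902 in the EE libraries and between 6120185 and 10586851 in the NE libraries. EE 4 stood apart on the first principal component of the 500 most variable genes, at -46.3 against -6.36 to 14.2 for the other 7. All 10 listed colonocyte genes were present, with summed levels of 3238 to 9235 counts scaled to the library size (CPM) in EE and 6547 to 11910 CPM in NE. In the authors' deposited table the sign of the fold change was opposite to EE minus NE for 97.8% of the genes tested here and for 38 of 39 tested members, and the header names no numerator. A ratio of NE over EE would give those signs, and so would exchanged column names. Every direction below therefore rests on the column names as they stand.

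The colon expressed a wide set of these carriers, led by one gene. Per kb of exon, which allows levels to be compared between genes, Slc6a14 stood first, at 207.4 ± 119 CPM per kb in EE and 303.2 ± 50.5 CPM per kb in NE (SD, n = 4 each). It encodes a sodium- and chloride-coupled carrier that takes up neutral and cationic amino acids across the apical membrane. Slc6a14 alone made up 14.3 to 43.7% of the members' summed CPM in the EE libraries and 34.8 to 42.3% in the NE libraries.

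The next 4 by mean level were Slc6a8, which carries creatine, the glutamine carrier Slc1a5, the system A carrier Slc38a2 and the heavy chain Slc3a2. Their length-scaled levels lay close together. Slc6a8 averaged 33.1 ± 10.3 CPM per kb in EE and 38.4 ± 8.02 CPM per kb in NE, and Slc3a2 averaged 30.1 ± 3.84 CPM per kb in EE and 24.8 ± 2.19 CPM per kb in NE. These ranges overlap, so the order among the 4 is not larger than the spread between libraries. The low end held genes best known from nerve cells, glia and retina: Slc7a14, Slc6a11 and Slc1a3 were the 3 lowest tested members, at means over all libraries of 0.244, 0.275 and 0.334 CPM per kb.

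**Figure D1:**
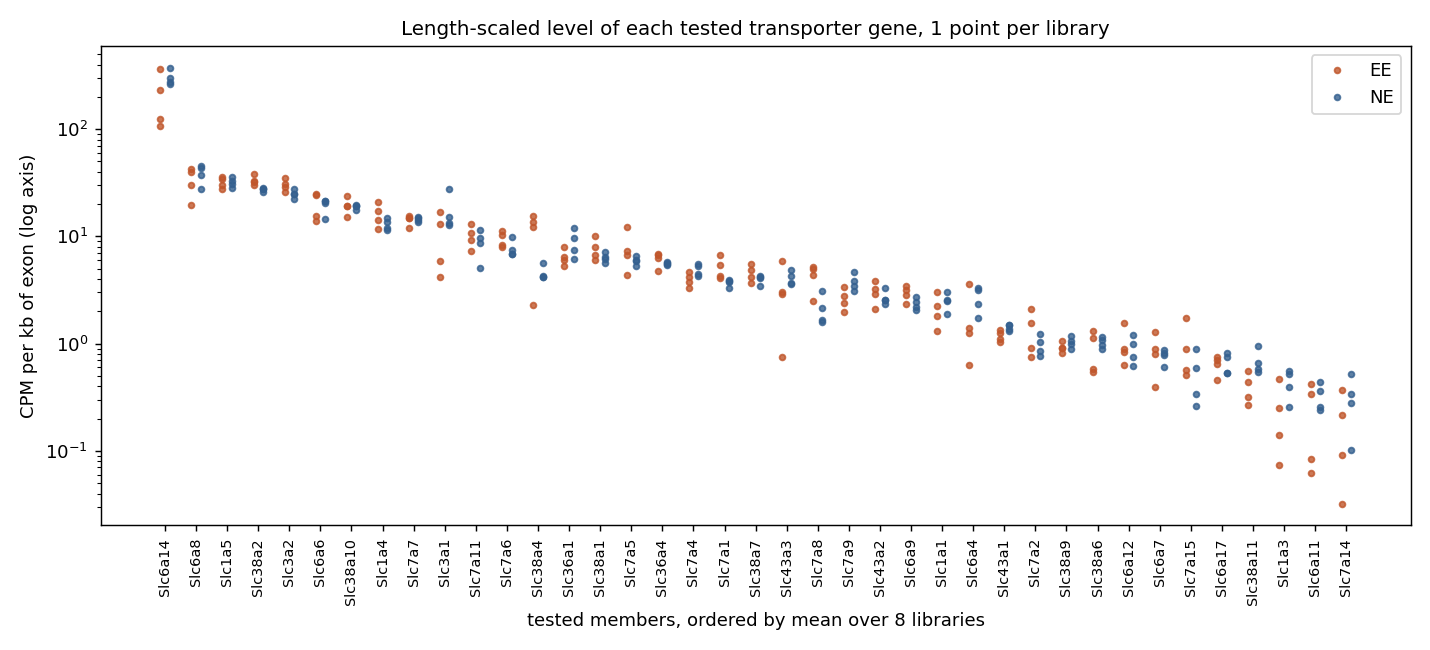
Length-scaled level (CPM per kb of exon, log axis) of the 39 tested members, ordered by their mean over the 8 libraries. Each point is 1 library, EE left of NE within a gene. Slc6a14 stands above all others in every library, and the EE points of Slc38a4 spread widely, with EE 2 below the NE points.

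No carrier passed the test over all genes, and the values ran in both directions. Of the 46 members 39 passed the filter on low counts and were tested, and 0 had an adjusted p under 0.05 with edgeR's quasi-likelihood test, like 0 of all 14311 genes (0.00%). At an unadjusted p under 0.05 there were 7 members (17.9%, against 9.48% of all genes tested), of which 5 were higher in EE (12.8%, against 5.73% of all genes tested) and 2 lower (5.13%, against 3.75%). The groups did not overlap in 2 of 39 members (5.13%), against 4.89% of all genes tested, and both were higher in EE (2.87% of all genes) while 0 were lower (2.02%). At least 3 EE libraries lay above all NE libraries in 8 members (20.5%, against 12.6% of all genes tested). At least 3 lay below all NE libraries in 8 members (20.5%, against 12.1%). The fitted log2 fold change was above 0 for 21 members (53.8%, against 50.3% of all genes) and below 0 for 18, with a median of 0.01 beside 0.00 for all genes. Its median size without regard to sign was 0.29 for the members and 0.19 for all genes tested. In bulk tissue, fewer cells of a type and less RNA per cell cannot be told apart.

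The 5 members at higher values were Slc38a4, Slc38a2, Slc7a8, Slc7a1 and Slc3a2, and the 2 at lower values were Slc7a9 and Slc38a11. All 7 shared an edgeR adjusted p of 0.520, so their values follow as measurements and not as changes.

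**Figure D2:**
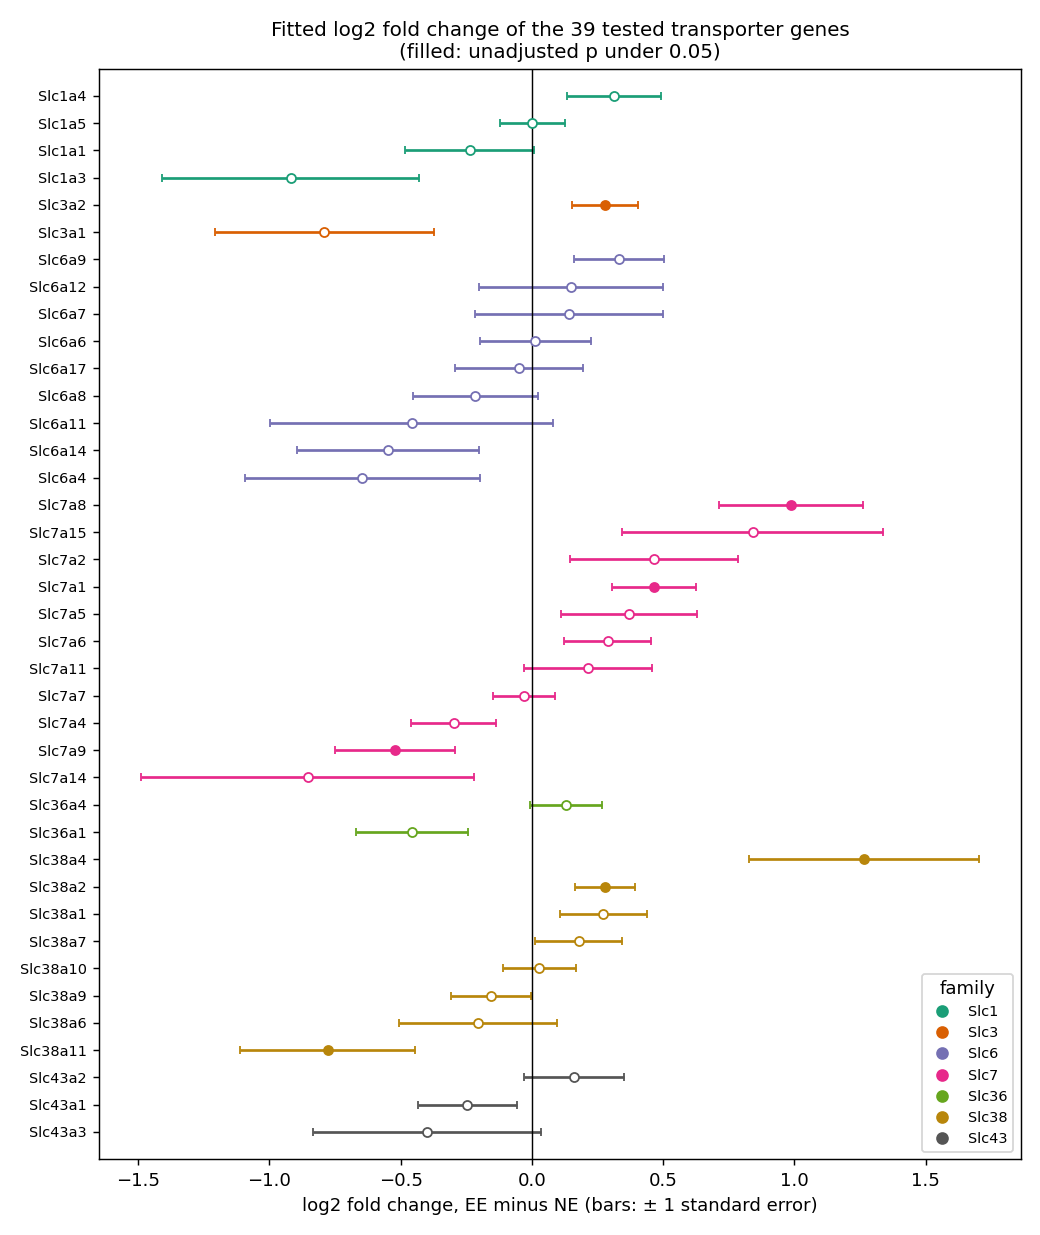
Fitted log2 fold change (EE minus NE) of the 39 tested members, grouped by family, with bars of 1 standard error. Filled points mark the 7 members with an unadjusted p under 0.05. Slc38a4 at 1.26 and Slc7a8 at 0.99 lie farthest to the right, and 0 members passed the adjusted threshold.

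The Slc38 family held the member with the largest fitted difference by edgeR. Slc38a4, a sodium-coupled carrier of neutral amino acids that is known in mouse as an imprinted gene, was at 66.7, 9.76, 57.7 and 51.8 CPM in EE 1 to EE 4, against 17.7, 23.9, 17.6 and 18.2 CPM in NE 1 to NE 4. Thus 3 EE libraries lay above every NE library and EE 2 lay below all of them. EE exceeded NE by 1.26 on the log2 scale (SE 0.44, adjusted p = 0.520 by edgeR's quasi-likelihood test), a 2.40-fold difference. By limma-voom it was 0.98 (unadjusted p = 0.0938), smaller in size than Slc1a3 at -1.14. Leaving out EE 2, the log2 fold change was 1.60 (SE 0.16, adjusted p = 0.0275), and Slc38a4 was then the 1 gene of 14563 to pass (0.00687%). Leaving out any other library, the adjusted p was between 0.460 and 0.843.

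Slc38a2, whose transcript is known to be induced when cells lack amino acids, showed a smaller difference that held in every library. It was at 290.3, 265.5, 282.8 and 335.8 CPM in EE 1 to EE 4, against 228.8, 244.2, 243.7 and 252.1 CPM in NE 1 to NE 4. The lowest EE value lay above the highest NE value, a log2 difference of 0.28 (SE 0.12, edgeR adjusted p = 0.520). Its chromosomal neighbour Slc38a1, a carrier of glutamine, averaged 132.1 ± 31.0 CPM in EE and 109.4 ± 10.9 CPM in NE, and the groups overlapped. The 3 genes lie in a row on the minus strand of chromosome 15 (GRCm38): Slc38a1 at 96571418 to 96642913, Slc38a2 at 96687392 to 96699730 and Slc38a4 at 96994820 to 97055956. Their values did not share 1 pattern, since EE 2 lay below all NE libraries in Slc38a4, above them in Slc38a2 and within them in Slc38a1.

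Among the lysosomal members of the family, Slc38a9, the arginine sensor upstream of mTORC1, was at 15.4 ± 1.65 CPM in EE and 17.2 ± 2.06 CPM in NE, and Slc38a7, which exports glutamine, at 18.8 ± 3.35 CPM in EE and 16.6 ± 1.52 CPM in NE. Slc38a10 was nearly level, at 123.9 ± 22.3 CPM in EE and 121.5 ± 5.82 CPM in NE. Slc38a11 was low throughout, at 1.91, 1.148, 1.36 and 2.38 CPM in EE 1 to EE 4, against 4.11, 2.87, 2.35 and 2.49 CPM in NE 1 to NE 4. The fitted log2 value was -0.78 (SE 0.33, edgeR adjusted p = 0.520), and EE 4 lay just inside the NE range. Slc38a11 rested on 6 to 26 counts per library, which limits its precision. Over the 8 tested members of Slc38, 5 fold changes were above 0 and 3 below, with a median log2 value of 0.10.

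The Slc7 family held 2 of the 5 members at higher values. Of 11 tested members 7 had a log2 fold change above 0 and 4 below, with a median of 0.29 beside 0.00 for all genes tested. Slc7a8, a basolateral exchanger of neutral amino acids, was at 24.6, 12.6, 21.8 and 25.8 CPM in EE 1 to EE 4, against 8.37, 15.6, 10.7 and 7.96 CPM in NE 1 to NE 4. Again 3 EE libraries lay above all NE libraries, and EE 2 lay within them. The log2 difference was 0.99 (SE 0.27, edgeR adjusted p = 0.520), or 1.98-fold.

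Slc7a1, which imports arginine and lysine without a heavy chain, was at 61.8, 47.7, 49.7 and 76.7 CPM in EE 1 to EE 4, against 43.4, 44.3, 44.95 and 38.3 CPM in NE 1 to NE 4. The groups did not overlap, at a log2 difference of 0.46 (SE 0.16, edgeR adjusted p = 0.520), though EE 2 and EE 3 lay within a few CPM of the highest NE library. Without EE 4 the log2 fold change was 0.31. The related Slc7a2 averaged 12.2 ± 5.72 CPM in EE and 8.85 ± 1.88 CPM in NE, a log2 difference of 0.46 with the larger SE of 0.32.

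**Figure D3:**
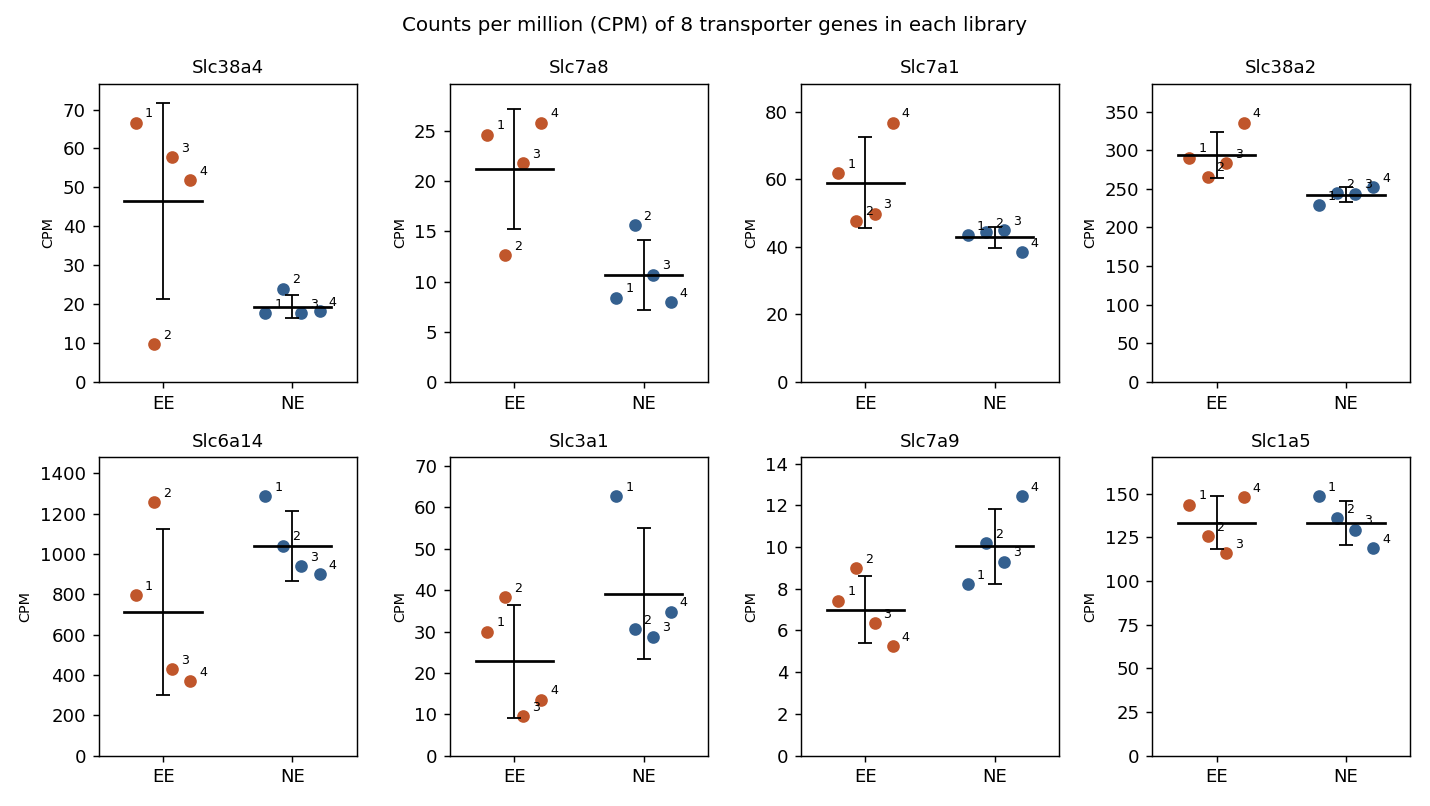
CPM of 8 members in each library, EE left and NE right, with the library number beside each point, the group mean as a line and its SD as a bar. In Slc38a4 and Slc7a8 the EE libraries 1, 3 and 4 lie above all NE libraries. In Slc7a1 and Slc38a2 all 4 do, and Slc1a5 overlaps fully.

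Slc3a2, the shared heavy chain, was at 101.3, 91.5, 123.6 and 109.1 CPM in EE 1 to EE 4, against 78.5, 87.6, 97.4 and 87.2 CPM in NE 1 to NE 4. EE 2 lay below the highest NE library, and the log2 difference was 0.28 (SE 0.13, edgeR adjusted p = 0.520). Of its light chains, Slc7a5, the main importer of leucine in dividing cells, was at 27.4, 16.3, 24.9 and 45.03 CPM in EE 1 to EE 4, against 22.6, 19.5, 21.7 and 24.4 CPM in NE 1 to NE 4. EE 2 lay below all NE libraries and the other 3 above, with EE 4 far ahead. Slc7a5 had a log2 difference of 0.37 (SE 0.26), and of 0.06 without EE 4.

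Slc7a6 and Slc7a7 exchange cationic for neutral amino acids. Slc7a6 averaged 43.2 ± 6.98 CPM in EE and 35.4 ± 6.64 CPM in NE, and Slc7a7 averaged 47.1 ± 5.17 CPM in EE and 47.9 ± 2.35 CPM in NE. Slc7a11, which imports cystine in exchange for glutamate and so feeds glutathione synthesis, varied more within groups than between them. It was at 101.1, 128, 151.4 and 182.8 CPM in EE 1 to EE 4, against 71.2, 120.5, 136 and 158.1 CPM in NE 1 to NE 4. The values rose with replicate number in both groups, and the labels do not say whether the numbers pair libraries.

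The subunits of the apical cystine transporter both had fitted values below 0, and neither passed the adjusted test. Slc3a1, the heavy chain, was at 29.9, 38.3, 9.52 and 13.5 CPM in EE 1 to EE 4, against 62.7, 30.5, 28.7 and 34.8 CPM in NE 1 to NE 4. EE 3 and EE 4 lay below every NE library, while EE 1 and EE 2 lay within their range. The log2 difference was -0.79 (SE 0.42, edgeR adjusted p = 0.537), -1.17 without EE 2 and -0.47 without NE 1, the highest library. Exons of Prepl on the opposite strand cover 26.5% of the exon length of Slc3a1, and the labels do not say whether counting used the strand. Prepl itself averaged 42.4 ± 2.62 CPM in EE and 42.4 ± 4.21 CPM in NE.

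Slc7a9, the light chain that pairs with Slc3a1, was at 7.43, 8.995, 6.35 and 5.23 CPM in EE 1 to EE 4, against 8.21, 10.2, 9.29 and 12.4 CPM in NE 1 to NE 4. All EE values but that of EE 2 lay below the lowest NE value. Slc7a9 differed by -0.52 on the log2 scale (SE 0.23, edgeR adjusted p = 0.520).

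Slc6a14 itself was at 795.0, 1258, 427.3 and 369.4 CPM in EE 1 to EE 4, against 1286, 1040, 939.5 and 899.5 CPM in NE 1 to NE 4. EE 1, EE 3 and EE 4 lay below every NE library, and EE 2 lay near the highest. The log2 fold change was -0.55 (SE 0.35, edgeR adjusted p = 0.578), and it ran from -0.97 without EE 2 to -0.33 without EE 4. The sum over all 46 members, Slc6a14 included, was 2131 to 2880 CPM in EE and 2536 to 3041 CPM in NE.

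The remaining Slc6 genes carry other substrates or are low in colon. The taurine carrier Slc6a6 averaged 165.9 ± 48.0 CPM in EE and 164.3 ± 28.1 CPM in NE, and the creatine carrier Slc6a8 averaged 172.3 ± 53.5 CPM in EE and 199.9 ± 41.8 CPM in NE. Both overlapped between groups. The glycine carrier Slc6a9 was at 12.1, 14.7, 16.2 and 17.8 CPM in EE 1 to EE 4, against 12.5, 11.3, 13.9 and 10.61 CPM in NE 1 to NE 4, a log2 difference of 0.33 (SE 0.17, edgeR adjusted p = 0.537). EE 1 lay within the NE range and the other 3 above it, and 27.8% of the exon length of Slc6a9 overlaps Ccdc24 on the opposite strand.

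Slc6a4, the serotonin transporter, was at 16.4, 6.32, 2.87 and 5.71 CPM in EE 1 to EE 4, against 15, 14.5, 10.7 and 7.79 CPM in NE 1 to NE 4. EE 1 was the highest library of all and the other 3 EE libraries lay below every NE library. The enteroendocrine marker list beside it had 6 of 6 tested members lower in EE and no marker at 0 counts. Its sums were 245, 287.1, 204.7 and 267.5 CPM in EE 1 to EE 4, against 267.2 to 429.9 CPM in NE. EE 3 was the lowest library in both, but EE 1 lay below every NE library in the list and above them all in Slc6a4. The part of these markers in the difference was not tested. Over the 9 tested Slc6 members the median log2 fold change was -0.05, with 4 above 0 and 5 below.

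Of all tested members the one with a fitted value nearest 0 was in Slc1. Slc1a5, the glutamine carrier, averaged 133.4 ± 15.1 CPM in EE and 133.2 ± 12.4 CPM in NE, a log2 difference of 0.00 (SE 0.12). The related Slc1a4, which carries serine and alanine, averaged 63.2 ± 15.8 CPM in EE and 50.9 ± 5.87 CPM in NE, with EE 1 and EE 4 above all NE libraries. The glutamate carrier Slc1a1 averaged 17.4 ± 6.13 CPM in EE and 20.5 ± 3.70 CPM in NE, and the groups overlapped, with 31.9% of its exon length shared with 4430402I18Rik on the opposite strand.

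Slc1a3, a glutamate carrier of glial cells, was at 2.12, 4.02, 1.21 and 0.634 CPM in EE 1 to EE 4, against 2.21, 4.73, 3.38 and 4.48 CPM in NE 1 to NE 4. The log2 fold change was -0.92 (SE 0.49, edgeR adjusted p = 0.540), and EE 4 had 4 counts in all. In the enteric glia list 5 of 5 tested markers were lower in EE, and no marker was at 0 counts. The sums were 15.5, 18.8, 7.71 and 5.07 CPM in EE 1 to EE 4, against 27.95, 26.4, 18.5 and 15.9 CPM in NE 1 to NE 4. The EE libraries had the same order as in Slc1a3, but NE 1 was highest in the list and lowest of the NE libraries in Slc1a3. Whether that list accounts for the difference was not tested.

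Slc36 and Slc43, with only 2 and 3 tested members, had 0 at an unadjusted edgeR p under 0.05, against 9.48% of all genes tested. The same held for Slc1 and Slc6, with 4 and 9 tested members. Slc36a1, a proton-coupled carrier of the lysosome and the brush border, was at 33.8, 36.4, 29.9 and 45.03 CPM in EE 1 to EE 4, against 54.95, 67.8, 42.0 and 34.3 CPM in NE 1 to NE 4. NE 3 and NE 4 lay within the EE range, and the log2 difference was -0.46 (SE 0.21, edgeR adjusted p = 0.520). Slc36a4 averaged 40.04 ± 6.25 CPM in EE and 36.5 ± 1.05 CPM in NE.

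Slc43a1 and Slc43a2, both carriers of large neutral amino acids, differed by -0.25 and 0.16 on the log2 scale (SE 0.19 for both). Slc43a3, the purine carrier, was at 26.1, 13.6, 12.8 and 3.33 CPM in EE 1 to EE 4, against 16.3, 21.5, 16.1 and 18.9 CPM in NE 1 to NE 4. EE 1 lay above all NE libraries and the other 3 below them. Summed fibroblast markers were at 1095, 1762, 1929 and 439.5 CPM in EE 1 to EE 4, against 1365 to 1617 CPM in NE. EE 4 was the lowest library there, as in Slc43a3, and also in the smooth muscle, plasma cell, T cell and enteric glia sums. The other EE libraries went the opposite way to Slc43a3: the fibroblast sum of EE 1 lay below all NE libraries, and those of EE 2 and EE 3 above them. All 6 fibroblast markers had fold changes below 0, but their median log2 value was only -0.18, from -0.007 for Col1a1 to -0.635 for Lum. None was at 0 counts, and their part in the value of Slc43a3 was not tested.

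**Figure D4:**
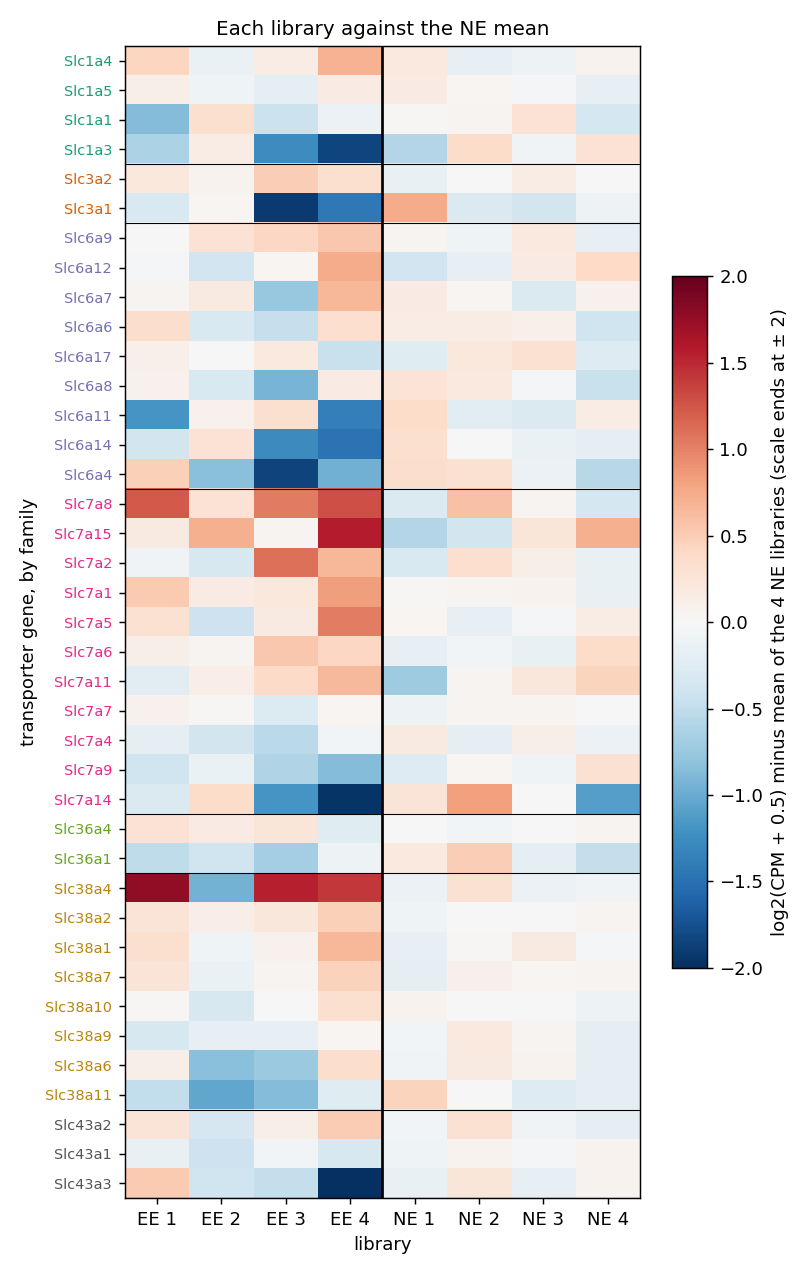
Each library's log2(CPM + 0.5) minus the mean of the 4 NE libraries, for the 39 tested members by family. Red is above the NE mean and blue below. Slc38a4 and Slc7a8 are red in EE 1, EE 3 and EE 4, and Slc3a1 and Slc6a14 have their darkest blue in EE 3 and EE 4.

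The EE libraries differed among themselves in how far the members lay from NE. EE 4 had 20 of 39 members above all NE libraries and 11 below, so that 8 lay within the NE range. EE 2 had 7 above, 11 below and 21 within. The same counts were not made over all genes, so they cannot show a trait particular to the carriers. EE 4 also stood apart on the first principal component of the 500 most variable genes. Without EE 2, 10 of 40 members had groups that did not overlap (25.0%), where 17.0% of all genes did so, and without EE 4 it was 5 of 40 (12.5%) beside 6.75%. Without EE 2, edgeR gave an unadjusted p under 0.05 to 10 members higher in EE (25.0%, against 9.70% of all genes) and 5 lower (12.5%, against 9.15%). Without EE 4 it gave one to 4 of 40 members higher (against 3.95% of all genes) and 3 lower (7.50%, against 2.69%).

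Markers of crypt and differentiated cells also differed among the EE libraries, and their values are set here beside 4 members chosen after their values were seen. All 11 crypt and Wnt target markers had fold changes above 0 (median log2 value 0.88). At an unadjusted edgeR p under 0.05 there were 9 of 11, against 5.73% of all genes tested higher in EE, and 0 passed the adjusted test. Their sums were 1196, 623.2, 1413 and 1760 CPM in EE 1 to EE 4, against 554.0, 724.5, 794.4 and 728.3 CPM in NE 1 to NE 4. EE 2 therefore lay among the NE libraries there, as it did in Slc7a8, and it was the lowest library in Slc38a4. All 10 colonocyte markers had fold changes below 0 (median -0.46), with sums of 7603, 9235, 3238 and 4226 CPM in EE 1 to EE 4, against 11910, 8382, 7944 and 6547 CPM in NE 1 to NE 4. EE 3 and EE 4 were the 2 lowest libraries in that list, as in Slc6a14 and Slc3a1. Other members had other orders: EE 2 lay above all NE libraries in Slc38a2 and Slc7a1, and EE 1 was the highest library in Slc43a3 and Slc6a4. Smooth muscle markers were below 0 in 9 of 9 (median -0.78), with sums of 663.7 to 4377 CPM in EE, lowest in EE 4, and 3499 to 5645 CPM in NE. Markers of enteric neurons were below 0 in 5 of 6, of plasma cells in 5 of 6 and of T cells in 6 of 6. No marker of the crypt, colonocyte or smooth muscle lists was at 0 counts in any library, and the part of cell composition in the carriers' values was not tested.

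**Figure D5:**
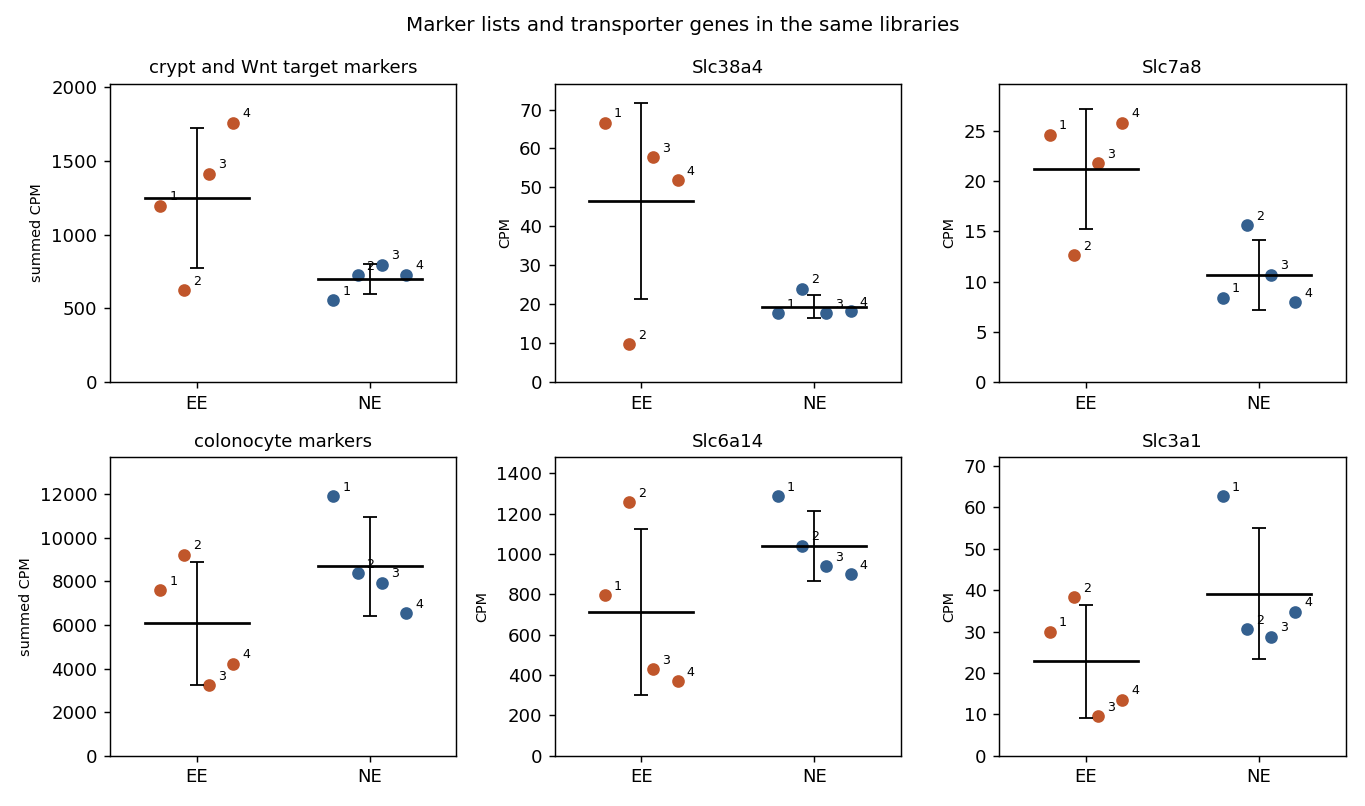
Summed CPM of 11 crypt and Wnt target markers beside CPM of Slc38a4 and Slc7a8 (top), and of 10 colonocyte markers beside Slc6a14 and Slc3a1 (bottom). Points are libraries with their numbers, EE left and NE right, lines are means and bars are SD. EE 2 lies with or below NE in the top panels, and EE 3 and EE 4 are lowest in the bottom panels.

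The sequences before the starts of 8 members were read to show what letters lie there. They are Slc38a4, Slc7a8, Slc6a14 and Slc3a1, which had the largest differences in the authors' deposited table, Slc7a1 and Slc38a2, the 2 tested members whose groups did not overlap, and Slc7a11 and Slc7a7, the 2 members whose windows hold the amino acid response element. Each is the 250 bases before a RefSeq start on GRCm38.p6, 5′ to 3′ on the gene's strand. Capitals mark 3 motifs searched on both strands: CTTTGAA or CTTTGAT for TCF/LEF factors, TGATGNAA for the amino acid response element bound by ATF4, and CAAAGTCCA for the nuclear receptor HNF4. The first and the last share the letters CAAAG and could overlap.
Slc38a4, chr15:97055957-97056206, minus strand: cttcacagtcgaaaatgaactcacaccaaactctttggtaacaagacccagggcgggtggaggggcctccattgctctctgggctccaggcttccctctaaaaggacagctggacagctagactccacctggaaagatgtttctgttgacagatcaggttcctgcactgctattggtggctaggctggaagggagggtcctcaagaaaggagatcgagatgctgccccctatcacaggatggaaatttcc
Slc7a8, chr14:54781887-54782136, minus strand: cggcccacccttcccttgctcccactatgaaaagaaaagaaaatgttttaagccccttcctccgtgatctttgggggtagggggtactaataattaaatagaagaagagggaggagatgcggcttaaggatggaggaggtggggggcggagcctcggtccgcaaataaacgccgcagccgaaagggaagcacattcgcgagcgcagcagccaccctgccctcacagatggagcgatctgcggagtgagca
Slc7a1, chr5:148392816-148393065, minus strand, the more downstream of 2 listed starts: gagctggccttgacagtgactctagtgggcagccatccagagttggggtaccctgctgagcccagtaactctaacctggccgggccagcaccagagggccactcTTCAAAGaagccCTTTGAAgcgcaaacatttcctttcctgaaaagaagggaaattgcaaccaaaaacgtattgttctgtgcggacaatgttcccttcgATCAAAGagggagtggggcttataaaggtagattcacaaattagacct
Slc38a2, chr15:96699729-96699978, minus strand: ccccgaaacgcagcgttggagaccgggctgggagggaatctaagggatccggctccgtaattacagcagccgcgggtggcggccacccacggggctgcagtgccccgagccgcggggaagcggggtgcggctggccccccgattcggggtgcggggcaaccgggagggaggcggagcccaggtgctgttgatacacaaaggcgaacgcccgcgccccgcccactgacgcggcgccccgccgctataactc
Slc6a14, chrX:21714650-21714899, plus strand: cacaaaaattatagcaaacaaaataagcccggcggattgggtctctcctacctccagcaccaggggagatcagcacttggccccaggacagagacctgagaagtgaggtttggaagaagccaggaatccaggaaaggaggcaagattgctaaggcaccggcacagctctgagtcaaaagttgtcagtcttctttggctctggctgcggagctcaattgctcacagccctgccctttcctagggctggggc
Slc3a1, chr17:85028097-85028346, plus strand: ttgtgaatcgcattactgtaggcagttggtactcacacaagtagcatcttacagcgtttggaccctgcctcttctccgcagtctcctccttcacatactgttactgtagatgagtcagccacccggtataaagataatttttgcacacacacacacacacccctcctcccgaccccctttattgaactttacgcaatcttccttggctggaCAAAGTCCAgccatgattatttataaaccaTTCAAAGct
Slc7a11, chr3:50443614-50443863, minus strand: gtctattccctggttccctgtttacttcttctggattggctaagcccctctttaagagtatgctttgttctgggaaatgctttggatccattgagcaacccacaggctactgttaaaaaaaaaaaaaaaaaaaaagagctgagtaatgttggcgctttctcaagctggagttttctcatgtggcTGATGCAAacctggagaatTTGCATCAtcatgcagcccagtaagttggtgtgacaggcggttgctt
Slc7a7, chr14:54417945-54418194, minus strand, the most upstream listed start: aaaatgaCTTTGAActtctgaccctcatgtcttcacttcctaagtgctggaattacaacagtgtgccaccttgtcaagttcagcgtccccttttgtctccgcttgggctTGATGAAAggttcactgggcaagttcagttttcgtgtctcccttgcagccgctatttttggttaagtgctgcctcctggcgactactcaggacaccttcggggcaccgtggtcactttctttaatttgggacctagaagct

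No capitals appear before Slc38a4, Slc7a8, Slc38a2 or Slc6a14, and the 2 other listed starts of Slc38a4 had no match either. Before Slc7a1 there are 3 TCF/LEF matches, and before its more upstream start there are none. Slc3a1 has an HNF4 match 39 to 31 bases before its start and a TCF/LEF match 9 to 3 bases before it. In Slc7a11 the 2 response element matches face each other, 66 to 59 and 47 to 40 bases before the start. Slc7a7 has a TCF/LEF match 243 to 237 bases and a response element match 141 to 134 bases before the start shown, and another response element match 243 to 236 bases before its next start. RefSeq windows were matched for 34 of the 46 members, with 54 starts in all. The TCF/LEF letters stood in 7 of those 54 windows (13%) and in 7.48% of all 32851 windows, the response element in 3 (5.56%) against 3.45%, and the HNF4 letters in 1 (1.85%) against 0.384%. The motifs were chosen with the expression values known, and a match describes letters and not a bound site.

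Genes that sense or answer to amino acid supply had median fold changes near 0. In the ATF4 response list 11 of 17 members had fold changes above 0 and 6 below (median log2 value 0.02). By edgeR 0 passed the adjusted test. At an unadjusted p under 0.05 there were 2 of 17 higher in EE (against 5.73% of all genes tested) and 1 of 17 lower (against 3.75%). Atf4 averaged 184.1 ± 17.1 CPM in EE and 184.9 ± 13.8 CPM in NE, and Asns, the asparagine synthetase that is a standard target, averaged 61.1 ± 2.97 CPM in EE and 59.95 ± 2.73 CPM in NE. The stress protein gene Nupr1 was at 161.8, 221.8, 124.8 and 181.5 CPM in EE 1 to EE 4, against 241.6, 258.6, 290.3 and 234.7 CPM in NE 1 to NE 4. Its groups did not overlap, with EE lower, as in 2.02% of all genes tested. The log2 difference was -0.57 (SE 0.17, edgeR adjusted p = 0.520). Ddit3 also had groups that did not overlap, at 9.87 ± 0.28 CPM in EE and 12.06 ± 1.99 CPM in NE. Its log2 difference was -0.29 (SE 0.17, edgeR adjusted p = 0.559). Shmt2, the mitochondrial serine hydroxymethyltransferase, averaged 42.9 ± 12.7 CPM in EE and 30.8 ± 1.81 CPM in NE.

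In the amino acid sensing list 8 of 19 tested members had fold changes above 0 and 11 below (median -0.06), with 0 past the adjusted test. By edgeR 1 of 19 was higher in EE at an unadjusted p under 0.05, against 5.73% of all genes tested. Sesn3, a sestrin that restrains mTORC1, averaged 17.8 ± 1.56 CPM in EE and 13.97 ± 1.83 CPM in NE, and Depdc5, a subunit of the GATOR complex with the same role, averaged 42.9 ± 9.42 CPM in EE and 33.8 ± 3.41 CPM in NE. Of the other amino acid and peptide carriers and their partners, 6 of 15 tested were above 0 and 9 below (median -0.12), again with 0 past the adjusted test. At an unadjusted edgeR p under 0.05, 2 of 15 were higher in EE, against 5.73% of all genes tested.

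Slc16a10, which carries aromatic amino acids and works on the basolateral side, was at 45.7, 27.9, 57.1 and 45.8 CPM in EE 1 to EE 4, against 24.5, 28.7, 32.9 and 29.8 CPM in NE 1 to NE 4. As in Slc7a8, EE 1, EE 3 and EE 4 lay above all NE libraries and EE 2 within them (log2 fold change 0.61, SE 0.20, edgeR adjusted p = 0.520). Pqlc2, which exports cationic amino acids from the lysosome, was at 9.13, 13.8, 11.03 and 14.9 CPM in EE 1 to EE 4, against 10.3, 8.31, 8.54 and 8.45 CPM in NE 1 to NE 4. Here it was EE 1 that lay within the NE range.

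The authors' deposited table gave 3 of the 46 members an FDR under 0.05 (6.52%), where 386 of its 16130 genes had one (2.39%). These were Slc38a4 (log2 fold change -0.83, FDR 1.19e-05) and Slc7a8 (-0.70, FDR 0.0134), 2 members whose EE columns were higher (1.07% of all genes), and Slc3a1 (0.71, FDR 0.0223), whose EE columns were lower (1.32%). Slc6a14 followed in the authors' deposited table with 0.70 and an FDR of 0.0552. DESeq2, run here on the same counts, gave adjusted p of 0.235, 0.147, 0.488 and 0.552 for Slc38a4, Slc7a8, Slc3a1 and Slc6a14, and called 0 of 34 members with an adjusted p, beside 0.106% of all genes. Limma-voom called 0 of 39 members beside 0.00% of all genes.

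The 7 members left out by the filter were Slc1a2, Slc1a7, Slc6a2, Slc6a13, Slc6a15, Slc6a19 and Slc36a2, with at most 23 counts in any library. Slc6a19, the main sodium-coupled importer of neutral amino acids in small intestine, had 11, 10, 4 and 5 counts in EE 1 to EE 4, against 16, 7, 14 and 8 counts in NE 1 to NE 4. Slc1a7, a glutamate carrier of the retina, had 8, 7, 23 and 15 counts in EE 1 to EE 4, against 3, 8, 13 and 8 counts in NE 1 to NE 4, and the CPM values of its groups did not overlap. With no filter on low counts, edgeR's quasi-likelihood test gave Slc1a7 a log2 difference of 1.09 (adjusted p = 0.514) and Slc1a2 one of 1.04 (adjusted p = 0.515), and both had an unadjusted p under 0.05. The other 5 did not in that fit. Over all 16130 genes in the fit with no filter, 5.78% were higher in EE at that threshold. In 4.92% the groups did not overlap, in either direction.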

How the data were processed

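Libraries of distal colon RNA were stranded and depleted of ribosomal RNA, and single reads of 50 bases were taken, per the labels' protocols. The submitters' processing notes name Novoalign 2.08.01, DESeq 1.14.0 and build mm10. No source used here names the annotation, the counter or its use of strand. The authors deposited 1 table of 16130 genes with raw counts for 8 libraries, taken as counts because all values are whole and totals differ. Its other columns, per the file headers, are the authors' own log2 fold change and FDR (a p-value adjusted for many tests).

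Groups were read from the titles. Counts were tested in R 4.3.3 with edgeR 4.0.16: filterByExpr kept 14311 genes, TMM scaled the libraries, and the quasi-likelihood test (robust, no covariate) compared EE with NE, with Benjamini-Hochberg adjustment over all tested genes at 0.05. CPM used TMM-scaled library sizes, and exon lengths and coordinates came from GENCODE M21 on GRCm38, the build of mm10. Standard errors are the fold change divided by the square root of F. The coefficient of variation between libraries that edgeR fitted beyond counting noise was 0.219. Within groups, the chi-square per degree of freedom between 2 libraries ran from 7.155 (NE 2 and NE 3) to 40.34 (EE 2 and EE 4), which is more than counting noise. Motif windows came from RefSeq. The tests were also run on simulated counts. These had the same spread in both groups and no library set apart, so they do not cover how EE 2 and EE 4 differed here. DESeq2 1.42.0 gave no adjusted p for 1119 genes, 5 of them members. Alternatives were DESeq2, limma-voom (limma 3.58.1), other scalings and filters, the replicate number as a block, and each library left out in turn.

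The members, lists and tests were chosen with earlier results of these data known. The named members were a fixed set of well-known carriers, up to 2 per family by length-scaled level and up to 2 by smallest p, and every tested member with an unadjusted p under 0.05. In each other list up to 2 genes were named by smallest p. Atf4, Asns and Ddit3 were added after their values were seen, as were further members given by their means. Library totals set the precision of low genes.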

Additional observations from a re-analysis of the deposited data

Results flagged for a closer look

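In 60 groups of 4 libraries checked, 1 per named gene and housing group, 2 held a library far from its group by Dixon's criterion, where chance gives about 1 in 20. Slc38a4 in NE 2 stood at 23.94 CPM, above the other 3 NE libraries at 17.6 to 18.2 CPM. Pqlc2 in NE 1 stood at 10.26 CPM, above 8.31 to 8.54 CPM in the other NE libraries. EE 2 at 9.76 CPM of Slc38a4, farther from its group in CPM, did not meet the criterion because the other EE values were spread as well.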

How the results depend on the processing

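Over 15 alternatives, 439 of 450 fold changes of 30 named genes kept their direction and their side of the threshold, 10 reversed and 1 passed. The 1 was Slc38a4 without EE 2, at 1.60 (1.05 to 1.60 over libraries left out), and with the replicate block it was 1.08 (unadjusted p = 0.0632). The reversals were in genes near 0: Slc1a5 was -0.00 with limma-voom, -0.01 with upper-quartile scaling, -0.00 with the replicate block and -0.05 to 0.07 with libraries left out, Slc38a10 ran from -0.08 to 0.13 and Slc7a7 from -0.07 to 0.06. DESeq2 called 14 genes in all and 0 members. With a library left out the calls were 0 to 1 genes and 0 to 1 members. Members at an unadjusted p under 0.05 and higher in EE numbered 3 with limma-voom (7.69%, against 5.15% of all genes) and 2 with the block (5.13%, against 4.43%), and ran from 3 without NE 1 (7.50%, against 2.90%) to 10 without EE 2 (25.0%, against 9.70%). Those lower in EE numbered 1 with DESeq2 (2.56%, against 4.21%), 4 with limma-voom (10.3%, against 5.79%) and 4 with the block (10.3%, against 5.39%). With a library left out they ran from 0 without EE 3 or NE 2 (0.00%, against 2.91% and 1.78%) to 5 without EE 2 (12.5%, against 9.15%), with 1 without NE 1 or NE 3 (2.50% and 2.44%, against 1.68% and 2.34%). Members whose groups did not overlap ran from 3 without EE 3 (7.50%, against 7.50% of all genes) to 10 without EE 2 (25.0%, against 17.0%), and were 4 or 5 without any other library (9.76 to 12.8%, against 6.27 to 12.6%), since fewer libraries overlap less often. The cause of the other shifts was not tested. Replicate numbers are shared between EE and NE, and deviations of same-numbered libraries correlated at 0.254, 0.0101, -0.180 and -0.0374. These values were not compared with differently numbered libraries, so they cannot decide whether the numbers mark pairs or a shared batch.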
